A study of Homo sapiens with 9 samples.

Results

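ASS1, ASL, ASNS, GOT1, GOT2 and GPT2 encode enzymes that make or spend aspartate and alanine. These 6 genes, of 78894 in the deposited tables, were selected by gene name as the enzymes of arginine and asparagine synthesis and the aspartate and alanine transaminases. The selection was made with earlier results of these data known, among them the differences of the variants from wild type, so the members' levels and differences are given here as a description, without a p-value. Poly-A RNA was sequenced from Hap1, a human line that is nearly haploid and descends from leukaemia cells (chronic myeloid). In every group the endogenous SARS2 gene, which encodes mitochondrial seryl-tRNA synthetase, had been deleted, and a SARS2-1xFLAG copy under doxycycline control was kept off by 6 days of growth without dox. The groups differed in a constitutive SARS2+int14-myc copy that was WT, R227Q or H448L, with 3 libraries each. Neither clonality nor separate cultures are stated in the labels. The p-values below therefore rest on the spread between these libraries alone, which may be technical. In bulk RNA, fewer cells of a type and less RNA per cell cannot be told apart.

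Aspartate is made from oxaloacetate in mitochondria by GOT2, which needs a working respiratory chain to keep up supply. In the cytosol GOT1 catalyses the same reversible reaction, which in the malate-aspartate shuttle runs the other way and uses aspartate. Aspartate is also spent by ASNS, which makes asparagine from it, and by nucleotide synthesis. ASS1 and ASL spend it too, adding its nitrogen to citrulline and releasing arginine. GPT2 makes alanine from pyruvate and glutamate in mitochondria. ASNS is a textbook target of ATF4, the transcription factor of the integrated stress response, and ASS1 is silenced in many tumour lines, which then depend on arginine from outside.

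Totals ran from 9900899 to 12991061 counts per library, so 1 count stood for 0.077 to 0.101 CPM (counts scaled to a common library total). The column names carried 2 prefixes, read here as 2 submissions to the sequencing service. These were SDKYMR (WT 1, WT 2 and R227Q 1) and 4LJFHN (WT 3, R227Q 2, R227Q 3 and all H448L libraries). Whether the cultures also differed between the 2 submissions is not known. Submission was a term in each fit, since 43.8% of the 16908 genes tested differed between them (quasi-likelihood test of edgeR, adjusted p under 0.05 by Benjamini-Hochberg, the threshold used throughout). SARS2 stood at 6.20 to 8.54 CPM in WT, 7.09 to 8.68 in R227Q and 7.88 to 8.68 in H448L, and neither variant passed the test against WT (edgeR adjusted p = 0.375 and 0.286). The tables do not tell its gene copies apart, so these levels do not check the labels. BCR and ABL1, the fusion partners of the parent leukaemia, summed to 12.7 to 16.3 CPM. Of 5 haematopoietic markers 2 averaged at least 1 CPM, the fetal globins HBG1 and HBG2. Both were listed at 0 in the 3 SDKYMR libraries. The list summed to 1.14 to 1.4 CPM in SDKYMR and 59.9 to 87.9 CPM in 4LJFHN. The 4 fibroblast markers summed to 18.8 to 23.1 CPM in SDKYMR and 51.0 to 63.4 in 4LJFHN. By group they summed to 18.8 to 51.0 CPM in WT, 23.1 to 63.4 in R227Q and 52.7 to 62.9 in H448L. Their main gene, COL1A1, was higher in R227Q (0.29 ± 0.07, edgeR adjusted p = 0.00469), at 22.8 against 18.4 and 19.3 CPM within SDKYMR and 55.0 and 51.9 against 42.9 CPM within 4LJFHN. The 4 epithelial markers, mostly KRT18, summed to 78.0 to 81.4 CPM in WT, 84.5 to 92.0 in R227Q and 78.8 to 89.7 in H448L, and KRT18 was higher in R227Q (0.15 ± 0.05, edgeR adjusted p = 0.0441). The 5 hepatocyte markers, mostly CPS1, summed to 3.93 to 4.5, 4.44 to 5.91 and 5.61 to 6.74 CPM. COL1A1 and KRT18 thus moved in the direction of ASS1, ASNS and GPT2 in R227Q, and not of GOT1 and GOT2. Other genes of their lists did not pass in R227Q. COL1A2 stood at -0.24 ± 0.21, EPCAM at -0.34 ± 0.38 and KRT8 at 0.14 ± 0.13 (edgeR adjusted p = 0.504, 0.604 and 0.52). In H448L COL1A1 and KRT18 stood at 0.10 ± 0.08 and 0.11 ± 0.06 and did not pass (edgeR adjusted p = 0.533 and 0.343). The part of these markers in the members' differences was not tested, and differences within SDKYMR, where the globins were at 0, are given beside each member.

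Promoter sequence for 5 of the 6 members came from RefSeq (GRCh38.p14), as 250 bases before to 50 after each start. No GPT2 promoter was matched. These are the sites that bear on the known regulators of the members, each shown as 30 bases on the gene's strand with the match in capitals:
ASNS, chr7:97872458-97872487, minus strand: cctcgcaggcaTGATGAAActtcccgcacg
GOT1, chr10:99430804-99430833, minus strand: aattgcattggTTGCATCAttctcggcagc
ASS1, chr9:130444878-130444907, plus strand: gcgcgtccccgcCACGTGtccccggtcacc
The first matches TGATGNAA, a form of the C/EBP-ATF response element through which ATF4 acts, at positions -68 to -61 from the annotated start. GOT1 holds the same motif on the opposite strand at -198 to -191. Of the 250 bases before these RefSeq starts, 134 for ASNS and 250 for GOT1 lie in exons of the gene's GENCODE models. Both matches lie inside the gene ranges given below, so they are upstream of the RefSeq start only. Of all 35116 promoters, 3.62% hold TGATGNAA on either strand. The ASS1 match is an E-box, CACGTG, at -71 to -66 of the downstream of its annotated starts, and 7.26% of promoters hold it. No TGATGNAA match lay in the listed windows of ASS1, ASL or GOT2, which says only that these letters are not there.

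The 250 bases before the upstream ASS1 start (chr9:130444457-130444706, plus strand) overlapped no exon of the gene's GENCODE models, whose range begins further downstream, at 130444929. The 250 bases were 68.4% G and C. They are shown because ASS1 differed most from WT among the members, with the GC boxes (GGGCGG on either strand, held by 45.0% of all promoters) in capitals:
ASS1 upstream: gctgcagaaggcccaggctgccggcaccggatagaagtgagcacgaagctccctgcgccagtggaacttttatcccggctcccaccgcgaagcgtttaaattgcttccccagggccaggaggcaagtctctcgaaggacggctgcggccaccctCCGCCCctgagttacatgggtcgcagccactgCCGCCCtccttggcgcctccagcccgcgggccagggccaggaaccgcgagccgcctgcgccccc
GC boxes were also found in the window of the downstream ASS1 start and in the windows of ASL, ASNS, GOT1 and GOT2. A match describes the letters of the window and not a bound site.

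Arginine synthesis begins with ASS1 (ENSG00000130707, GRCh38 chromosome 9, 130444929 to 130501274, plus strand), argininosuccinate synthase, which joins citrulline to aspartate. WT libraries 1 to 3 held 46.3, 51.2 and 54.1 CPM of ASS1. The R227Q libraries stood at 102, 103 and 104 CPM and the H448L libraries at 85.5, 88.6 and 90.8 CPM. The 3 groups did not overlap: each R227Q library was above each H448L library, and these were above each WT library. Group means (± SD, n = 3) came to 50.5 ± 3.98 CPM in WT, 103 ± 0.975 in R227Q and 88.3 ± 2.67 in H448L.

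Against WT, the fitted ASS1 difference was a log2 fold change of 1.00 ± 0.05 (SE) in R227Q, or 2.0-fold, and 0.74 ± 0.06 in H448L, or 1.67-fold. Within SDKYMR, R227Q 1 stood 1.06 above the WT libraries on the log2 CPM scale. Within 4LJFHN, R227Q was 0.93 and H448L 0.68 above the WT library. The R227Q difference changed by -0.13 ± 0.11 between submissions, which was not past the threshold (edgeR interaction term, adjusted p = 0.999). That test was added after the data were seen; across all genes edgeR called 0.0% of 16908, with 736 at an unadjusted p under 0.05, and limma-voom called 0. By size, the R227Q difference was number 153 from the top of 16908 genes and the H448L difference number 410. Both variants were compared with the same WT libraries, so the 2 differences share their controls. ASS1 has 14 annotated pseudogene copies, which could take reads from it, but 3 of them had any count, and together they held at most 5 counts in a library, or 0.521% of the ASS1 count.

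**Figure D1:**
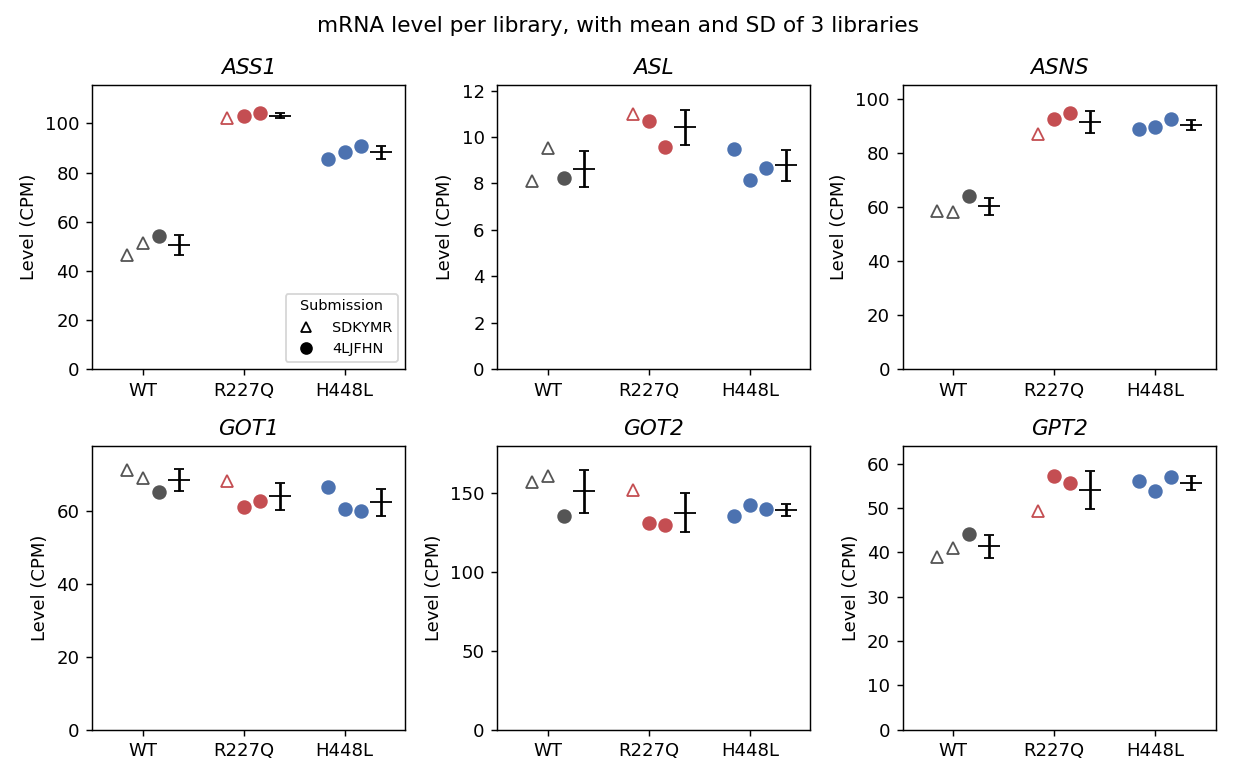
Level in CPM of each of the 6 genes (vertical axis from 0) by SARS2 genotype; triangles are SDKYMR libraries, filled circles 4LJFHN libraries, and the bar beside each group is the mean with its SD over 3 libraries. ASS1, ASNS and GPT2 lie higher in each library of both variants than in each WT library, while GOT1 and GOT2 overlap between groups.

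ASL (ENSG00000126522, chromosome 7, 66075798 to 66093558, plus strand), argininosuccinate lyase, cleaves the ASS1 product into arginine and fumarate. It had the lowest level per length of the members, at 8.12, 9.51 and 8.23 CPM in WT 1 to 3. R227Q 1 to 3 held 11, 10.7 and 9.56 CPM, all above WT though R227Q 3 by little. H448L 1 to 3 held 9.49, 8.17 and 8.69 CPM, which overlapped WT. The fitted differences were 0.30 ± 0.11 in R227Q (0.31 within SDKYMR and 0.28 within 4LJFHN) and 0.08 ± 0.14 in H448L (0.07 within 4LJFHN). With 86 to 135 counts per library, counting error alone reached 10.8% of the ASL level. ASLP1, its pseudogene copy, held up to 6.64% of the ASL count, and 563 exon bases are shared with AC068533.4 on the same strand, so the value is uncertain.

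ASS1 and ASL act in sequence and their levels did not keep 1 proportion. Per kb of exon, the ratio of ASS1 to ASL level was 6.38, 6.03 and 7.37 in WT 1 to 3. It was 10.4, 10.8 and 12.2 in R227Q and 10.1, 12.1 and 11.7 in H448L. Every variant library was above every WT library in this ratio, and the variants overlapped.

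ASNS (ENSG00000070669, chromosome 7, 97852118 to 97872542, minus strand), asparagine synthetase, moves the amide nitrogen of glutamine onto aspartate. WT libraries 1 to 3 held 58.5, 58.0 and 63.9 CPM of ASNS. The R227Q libraries stood at 86.8, 92.5 and 94.7 CPM and the H448L libraries at 88.7, 89.5 and 92.5 CPM. Both variants lay above WT without overlap, and the variants overlapped each other. Group means (± SD, n = 3) came to 60.1 ± 3.22 CPM in WT, 91.3 ± 4.07 in R227Q and 90.3 ± 2.01 in H448L.

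The fitted ASNS difference was 0.55 ± 0.05 in R227Q, or 1.47-fold, and 0.48 ± 0.06 in H448L, or 1.40-fold. Within SDKYMR the R227Q difference was 0.56, and within 4LJFHN it was 0.54, against 0.48 for H448L. The R227Q difference changed by -0.02 ± 0.10 between submissions (edgeR interaction term, adjusted p = 0.999). ASNS shares 1985 exon bases with AC079781.5, a processed transcript on the same strand, so reads could be divided between them. Its 5 pseudogene entries held at most 0.92% of the ASNS count.

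**Figure D2:**
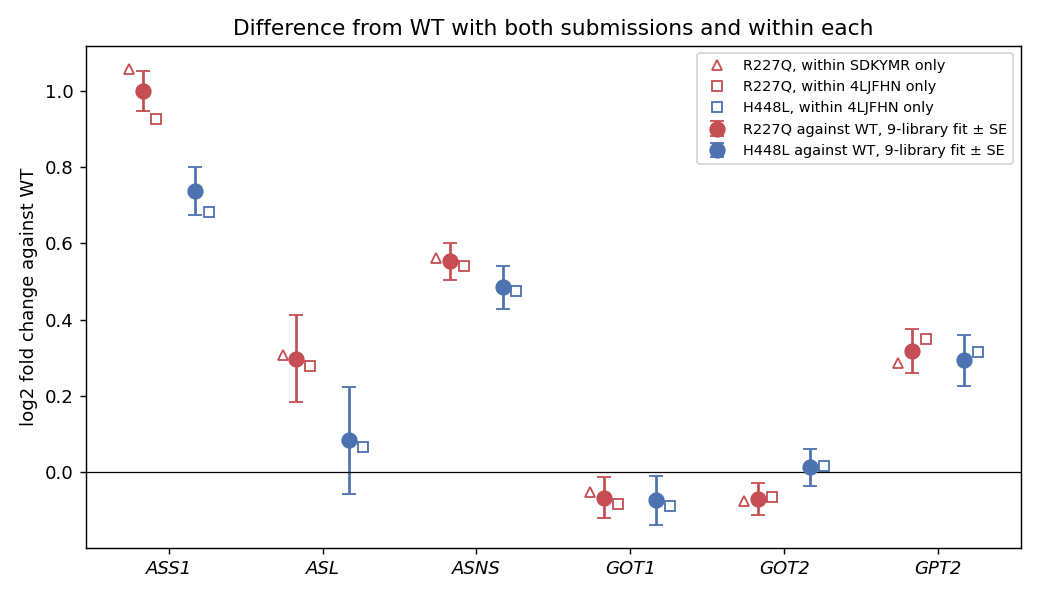
Log2 fold change against WT for each gene, with filled circles for the fit on 9 libraries (bars are SE), open triangles for SDKYMR alone and open squares for 4LJFHN alone. ASS1 at 1.00 and 0.74, ASNS at 0.55 and 0.48, and GPT2 at 0.32 and 0.29 lie above 0 in both variants, and the values within a submission lie near the fitted ones.

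GPT2 (ENSG00000166123, chromosome 16, 46884378 to 46931297, plus strand), the mitochondrial alanine transaminase, showed the smallest of the differences that were present in both variants. WT libraries 1 to 3 held 38.9, 41.1 and 44.1 CPM of GPT2. The R227Q libraries stood at 49.2, 57.3 and 55.8 CPM and the H448L libraries at 56.0, 53.9 and 57.1 CPM. Neither variant overlapped WT. R227Q 1, the SDKYMR library, was the lowest of the variant libraries. Group means (± SD, n = 3) came to 41.4 ± 2.57 CPM in WT, 54.1 ± 4.27 in R227Q and 55.7 ± 1.62 in H448L.

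The fitted GPT2 difference was 0.32 ± 0.06 in R227Q, or 1.25-fold, and 0.29 ± 0.07 in H448L, or 1.23-fold. It was 0.29 within SDKYMR and 0.35 within 4LJFHN for R227Q, and 0.31 within 4LJFHN for H448L. GPT, the cytosolic alanine transaminase, was below the filter on low counts with a mean of 0.113 CPM, as were AGXT and AGXT2, which use alanine as a donor of amino groups and were listed at 0 in all libraries. Of these 4 genes GPT2 alone passed the filter.

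The aspartate transaminases did not share these differences. GOT1 (ENSG00000120053, chromosome 10, 99396870 to 99431569, minus strand), the cytosolic form, stood at 71.3, 69.0 and 65.3 CPM in WT 1 to 3. The R227Q libraries stood at 68.2, 61.3 and 62.7 CPM and the H448L libraries at 66.5, 60.6 and 60.0 CPM, and the groups overlapped. The fitted differences were -0.07 ± 0.05 in R227Q (-0.05 within SDKYMR and -0.09 within 4LJFHN) and -0.07 ± 0.06 in H448L (-0.09 within 4LJFHN). GOT1 shares 651 exon bases with AL391684.1 on the opposite strand, and whether counting used strand is unknown here.

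GOT2 (ENSG00000125166, chromosome 16, 58707131 to 58734357, minus strand), the mitochondrial form, had the highest level per length of the members. WT 1 to 3 held 157, 161 and 136 CPM, R227Q 1 to 3 held 152, 131 and 130.05 CPM, and H448L 1 to 3 held 136, 143 and 140.2 CPM. The 3 highest libraries were those of SDKYMR, whatever their genotype. The fitted differences were -0.07 ± 0.04 in R227Q (-0.08 within SDKYMR and -0.07 within 4LJFHN) and 0.01 ± 0.05 in H448L (0.02 within 4LJFHN). The ratio of GOT2 to GOT1 per kb was 2.47 to 2.77 in WT, 2.46 to 2.65 in R227Q and 2.42 to 2.79 in H448L, ranges that overlapped.

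The difference between submissions is a measure that the selection did not use. GOT2 was 1.21-fold lower in 4LJFHN than in SDKYMR (log2 fold change -0.27 ± 0.04, edgeR adjusted p = 3.14e-06) and GOT1 1.13-fold lower (-0.17 ± 0.05, edgeR adjusted p = 0.0109). The other 4 members did not pass this test: ASS1 at 0.02 ± 0.05, ASL at -0.16 ± 0.11, ASNS at 0.07 ± 0.05 and GPT2 at 0.12 ± 0.06 (edgeR adjusted p = 0.789, 0.259, 0.27 and 0.0891). So 2 of 6 members were called, both lower, beside 43.8% of all genes and 23.0% called lower.

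In WT cells the order per kb of exon was GOT2 at 61.46 ± 5.52 CPM per kb (± SD, n = 3), ASS1 at 24.44 ± 1.92, ASNS at 24.15 ± 1.29, GOT1 at 23.45 ± 1.03, GPT2 at 9.26 ± 0.576 and ASL at 3.72 ± 0.334. On this scale the libraries of ASS1, ASNS and GOT1 overlapped, while GOT2, GPT2 and ASL each stood apart from their neighbours. In CPM the WT libraries of ASS1 (46.3 to 54.1), ASNS (58.0 to 63.9) and GOT1 (65.3 to 71.3) did not overlap. In R227Q cells ASS1 at 49.91 ± 0.472 CPM per kb was next below GOT2 at 55.95 ± 5.03, with no overlap of their libraries. ASNS followed at 36.65 ± 1.64, apart from GOT1 at 21.9 ± 1.25. In H448L cells ASS1 was at 42.7 ± 1.29 and ASNS at 36.2 ± 0.806 CPM per kb, again without overlap. In CPM the H448L libraries of ASS1 and ASNS overlapped, at 85.5 to 90.8 and 88.7 to 92.5. Exon length was the union of protein-coding transcripts in GENCODE's basic set, and which of these transcripts the cells use was not measured. The scaling also assumes reads along the whole transcript, which was not checked, so the order between genes is uncertain.

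**Figure D3:**
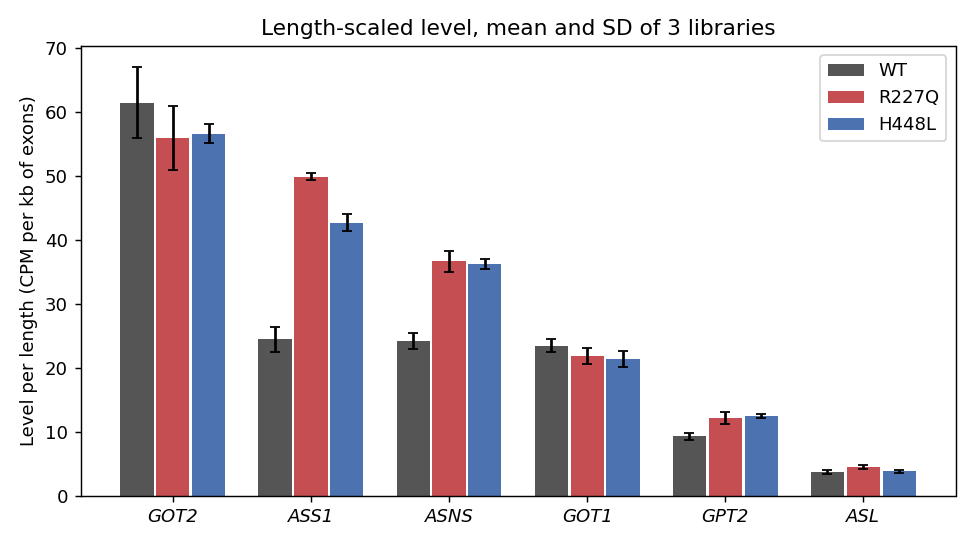
Level per length in CPM per kb of exon (vertical axis from 0) for the 6 genes, ordered by WT level; bars are means over 3 libraries and error bars are SD. On this scale ASS1, ASNS and GOT1 are close in WT, with means of 23.45 to 24.44. ASS1 and ASNS stand above GOT1 in both variants.

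By the edgeR test across all genes, ASS1, ASNS and GPT2 were past the threshold in R227Q against WT (3 of 6 members, beside 17.4% of all genes and 7.5% called higher) and in H448L against WT (3 of 6, beside 7.97% and 2.97%), all of them higher. Since the members were selected with these comparisons known, nothing is read from those counts. The H448L call of GPT2 was lost without WT 3 (0.25). The median log2 fold change of the members was 0.31 in R227Q and 0.19 in H448L, beside 0.00 and 0.01 over all genes. Each R227Q library lay above each WT library for 4 of 6 members (11.1% of all genes) and each H448L library for 3 of 6 (19.7%). These and the other comparisons of library ranges use CPM with submission not removed. All H448L libraries, but only WT 3 of the WT libraries, are from 4LJFHN, so the H448L share mixes submission with genotype. Of all genes called in R227Q, 1268 were higher and 1676 lower, but 1565 and 1335 with upper-quartile factors. The corresponding H448L numbers were 503 and 844, and 584 and 652. The directions of ASS1, ASNS and GPT2 were the same with each of these scalings.

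Between the variants, ASS1 was 1.20-fold lower in H448L than in R227Q (log2 fold change -0.26 ± 0.05, and -0.24 within 4LJFHN). It was 1 of 6 members past the threshold, beside 0.207% of all genes and 0.124% called lower, and nothing is read from that count, since the selection knew this comparison too. The call was lost without WT 3 (-0.25), R227Q 1 (-0.25), R227Q 3 (-0.27) or H448L 2 (-0.27), with the replicate block (-0.24) and without the submission term (-0.26). ASL stood at -0.21 ± 0.12 and also showed no overlap between the variants, so 2 of 6 members had each H448L library below each R227Q library (4.95% of all genes). ASNS (-0.07 ± 0.05), GPT2 (-0.02 ± 0.06), GOT1 (-0.01 ± 0.06) and GOT2 (0.08 ± 0.04) had overlapping variants. The comparison shares its libraries with those against WT.

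ASS1, ASNS and GPT2 followed each other over the libraries. On log2 CPM with the submission effect removed and the groups kept, Pearson's r over the 9 libraries was 0.98 for ASS1 with ASNS, 0.97 for ASNS with GPT2 and 0.96 for ASS1 with GPT2. For ASL with these genes it was 0.63 to 0.73, and for GOT1 and GOT2 with them it was -0.58 to -0.40. The points share 3 genotypes, so r mostly describes the step from WT to both variants. Of 11130 named genes with a mean of at least 5 CPM, the ones most like ASS1 were GAA, a lysosomal glucosidase (r = 0.997, log2 fold change 0.40 in R227Q and 0.31 in H448L), INHBE, an inhibin beta subunit (0.992, 1.47 and 1.15), and FLRT2 (0.992, 0.74 and 0.57). Most like ASNS were NEUROG2, a neurogenic transcription factor (0.993, 1.45 and 1.19), ZFAND5 (0.992, 0.45 and 0.41) and RPS21, a ribosomal protein gene with near-identical copies that make its value uncertain (0.992, 0.27 and 0.26). Most like GPT2 were TOX3 (0.989, 0.42 and 0.42), PCK2, mitochondrial phosphoenolpyruvate carboxykinase (0.988, 0.72 and 0.62), and ZNF33B (0.986, 0.23 and 0.24). For the members with little difference the closest genes were EIF3F, IGFBPL1 and PTP4A3 for ASL (r = 0.951 to 0.963), MT-ND3, ST8SIA2 and NSUN3 for GOT1 (0.955 to 0.964), and VBP1, PTBP2 and EEA1 for GOT2 (0.949 to 0.964). These values are a description over 9 points that share libraries and the same adjustment for submission.

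The other genes of these pathways were taken from 9 lists with 76 genes, of which 58 were tested. The lists were written with earlier results of these data known. Their counts, shares and p-values are therefore a description, and nothing is read from a share beside that of all genes. In R227Q against WT 16 rose and 4 fell, or 34.5% beside 17.4% of all genes, and in H448L 7 rose and 1 fell, or 13.8% beside 7.97% (edgeR test). Without WT 3 these totals were 11 and 3, without R227Q 1 the R227Q total was 11, and without the submission term they were 4 and 0. Outside the list of known ATF4-driven genes, 8 of 47 rose and 4 fell in R227Q (25.5%), with a median log2 fold change of -0.01, and 2 rose and 1 fell in H448L (6.38%), with a median of 0.02. Between the variants edgeR called 0 of the 58 genes, with 10 at an unadjusted edgeR p under 0.05. The limma-voom fit called 0 as well, and DESeq2 gave an adjusted p for 6 of the 58, too few to count.

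In the list for the malate-aspartate shuttle, which moves reducing power into mitochondria, edgeR called 0 of 6 genes in either variant (2 and 1 at an unadjusted p under 0.05). The medians of the list were -0.07 in R227Q and -0.01 in H448L. This list left out GOT1 and GOT2, which are members, and took in SLC25A22, a glutamate carrier that is not part of the shuttle itself. MDH1 and MDH2, the malate dehydrogenases, stood at -0.05 ± 0.05 and 0.11 ± 0.04 in R227Q (edgeR adjusted p = 0.531 and 0.0555). SLC25A12 and SLC25A13, the mitochondrial exporters of aspartate, stood at -0.20 ± 0.10 and -0.15 ± 0.06 (edgeR adjusted p = 0.17 and 0.0711), and in H448L at -0.05 ± 0.12 and -0.11 ± 0.07. SLC1A3, a plasma membrane importer of aspartate and glutamate, stood at 0.14 ± 0.12 and 0.29 ± 0.14 in R227Q and H448L (edgeR adjusted p = 0.502 and 0.251).

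Of the cell membrane transporters, 4 of 7 tested rose in R227Q and 1 in H448L, with medians of 0.16 and 0.17. The 4 are named after their values were seen: SLC38A2, a carrier of small neutral amino acids, SLC1A4 and SLC1A5, carriers of alanine, serine, cysteine or glutamine, and SLC7A11, the cystine and glutamate exchanger. SLC38A2 rose by 0.26 ± 0.05 in R227Q (0.26 in SDKYMR and 0.27 in 4LJFHN) and 0.19 ± 0.06 in H448L (edgeR adjusted p = 0.0354). Its H448L call was lost without WT 2 (0.18), WT 3 (0.18), R227Q 1 (0.20), R227Q 2 (0.19), H448L 2 (0.19) or H448L 3 (0.18). It was also lost with the replicate block (0.19), with DESeq2 (0.18), with no filter on low counts (0.18), in 4LJFHN alone (0.20) and without the submission term (0.27). SLC1A4 (0.36 ± 0.12), SLC1A5 (0.14 ± 0.04) and SLC7A11 (0.20 ± 0.06) were each called in R227Q, and each of these calls was lost without WT 3 (0.37, 0.16 and 0.26) or R227Q 1 (0.34, 0.12 and 0.15). The SLC1A4 and SLC7A11 calls were also lost without WT 1 (0.28 and 0.17), the SLC1A5 call without WT 2 (0.12), and the SLC1A4 and SLC1A5 calls without R227Q 3 (0.28 and 0.12). DESeq2 did not call SLC1A4 (0.34) or SLC7A11 (0.19) in R227Q.

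Nucleotide synthesis, which also uses aspartate, had 2 of 7 genes that fell in R227Q and 0 that rose, with a median of -0.09. UMPS, which makes UMP from orotate, was lower at -0.35 ± 0.05 (edgeR adjusted p = 1.94e-05), and its difference was -0.31 within SDKYMR and -0.39 within 4LJFHN. PAICS, the purine enzyme that adds aspartate, was lower at -0.19 ± 0.04 (edgeR adjusted p = 8.84e-04). Leaving out WT 3 ended that call (-0.14). CAD, the first pyrimidine enzyme and a user of aspartate, stood at 0.10 ± 0.06 in R227Q and 0.13 ± 0.07 in H448L (edgeR adjusted p = 0.277 and 0.299). In H448L edgeR called 0 of the 7, 2 of them at an unadjusted p under 0.05, and UMPS stood at -0.18 ± 0.06 (edgeR adjusted p = 0.0697).

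**Figure D4:**
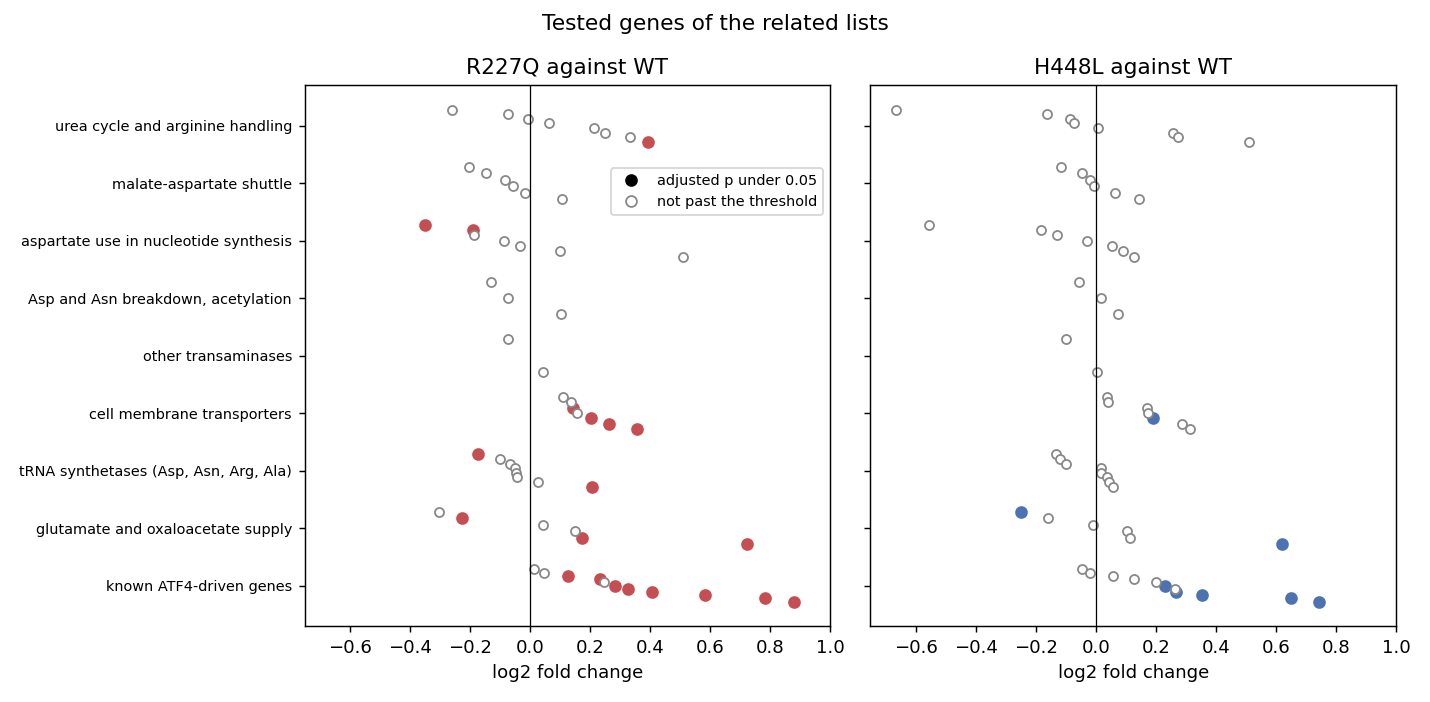
Log2 fold change against WT of the 58 tested genes of 9 related lists (rows), for R227Q on the left and H448L on the right; filled points had an edgeR adjusted p under 0.05 and open points did not. In R227Q filled points on the right of 0 are most frequent in the rows of transporters (4 of 7) and known ATF4-driven genes (8 of 11), in H448L in the row of known ATF4-driven genes (5 of 11), and the malate-aspartate shuttle row has open points only.

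In the urea cycle and arginine list 1 of 8 tested genes passed, in R227Q. That was GATM, which makes guanidinoacetate from arginine, at 0.39 ± 0.08 (0.27 in SDKYMR and 0.50 in 4LJFHN, edgeR adjusted p = 9.91e-04), named after its value was seen, with its call lost without WT 3 (0.28). ARG2, mitochondrial arginase, stood at 0.06 ± 0.07 in R227Q and -0.09 ± 0.09 in H448L (edgeR adjusted p = 0.567 and 0.632). OTC, which makes the citrulline that ASS1 uses, and ARG1, the liver arginase, were below the filter, at means of 0.0487 and 0.00987 CPM. ASPG, an asparaginase, was listed at 0 in all libraries, and ASRGL1, another, stood at -0.07 ± 0.05 in R227Q (edgeR adjusted p = 0.395).

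Among the listed tRNA synthetases, 1 of 8 rose and 1 fell in R227Q and edgeR called 0 in H448L (1 at an unadjusted p under 0.05). AARS1, for alanine, was higher by 0.21 ± 0.05 (edgeR adjusted p = 0.0037). It is named after its value was seen, and its call depended on WT 3 (0.23 without it) and R227Q 1 (0.18). RARS1, for arginine, was lower at -0.17 ± 0.05 (edgeR adjusted p = 0.00812), which rested on R227Q 1 (-0.11 without it). NARS1, for asparagine, stood at -0.04 ± 0.05 in R227Q (edgeR adjusted p = 0.59).

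Among genes that supply glutamate and oxaloacetate, PCK2 rose by 0.72 ± 0.06 in R227Q and 0.62 ± 0.07 in H448L (edgeR adjusted p = 7.0e-10 and 9.41e-07). GLUL, which makes glutamine, was lower at -0.23 ± 0.05 in R227Q and -0.25 ± 0.06 in H448L (edgeR adjusted p = 0.00173 and 0.00843). The first call ended without R227Q 1 (-0.22) and the second without WT 3 (-0.26). Of 11 known ATF4-driven genes, 8 rose in R227Q and 5 in H448L, with medians of 0.28 and 0.23. In R227Q the largest rises were CHAC1 at 0.88 ± 0.11, DDIT3 at 0.78 ± 0.06, DDIT4 at 0.58 ± 0.06 and CEBPB at 0.41 ± 0.05, all with the same sign in both submissions. In H448L they were CHAC1 at 0.74 ± 0.14, DDIT3 at 0.65 ± 0.08, DDIT4 at 0.35 ± 0.07 and CEBPB at 0.27 ± 0.06, of which CHAC1 (0.64) and CEBPB (0.27) were not called without WT 3. CEBPB was not called with the replicate block either (0.19). PHGDH, the first enzyme of serine synthesis, was the fifth gene called in H448L, at 0.23 ± 0.05, and was not called without WT 3 (0.28) or R227Q 1 (0.20). ATF4 itself stood at 0.13 ± 0.04 and TRIB3 at 0.23 ± 0.07 in R227Q (edgeR adjusted p = 0.0274 and 0.0225). Neither passed without WT 3 (0.14 and 0.22) or R227Q 1 (0.12 and 0.25). The ATF4 call was also lost without WT 1 (0.10) or R227Q 2 (0.12), and the TRIB3 call without WT 2 (0.23) or R227Q 3 (0.20). With DESeq2 neither ATF4 (0.12) nor TRIB3 (0.22) was called in R227Q. Without the submission term the H448L calls of PCK2 (0.45) and DDIT3 (0.14) were lost. So were the R227Q calls of CHAC1 (0.54), DDIT3 (0.55) and DDIT4 (0.41), while the R227Q calls of PCK2 and CEBPB were kept. In that setting 7 of the 58 tested list genes had the opposite sign in R227Q and 17 in H448L. Among the called genes these were ATF4 in R227Q (-0.04), and CHAC1 (-0.04) and DDIT4 (-0.01) in H448L.

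The element printed above for ASNS was looked for in the lists too. Of the 76 list genes 60 matched a RefSeq promoter, and 9 of these hold TGATGNAA: SLC7A1, SLC25A11, SLC1A3, SLC1A4, SLC1A5, NARS1, AARS1, CHAC1 and ATF3. Counted the same way, 4.46% of all genes with a listed promoter hold it. Since the lists were written with earlier results of these data known, nothing is read from that count. SLC1A4, SLC1A5, AARS1 and CHAC1 rose in R227Q, while SLC7A1 (-0.01 ± 0.06), SLC25A11 (-0.02 ± 0.05), NARS1, SLC1A3 and ATF3 (0.25 ± 0.11, edgeR adjusted p = 0.11) did not pass. In H448L, CHAC1 was the 1 gene of these 9 that passed. GOT1, which holds it as well, stood at -0.07. ASS1, with the largest difference of the members, has no such match in its windows. Of the 11 listed known ATF4-driven genes, all with a listed promoter, 2 hold it (CHAC1 and ATF3). A missing match thus does not separate ASS1 from that list, and what drives the members was not tested.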

How the data were processed

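RNA extraction, poly-A capture, second strand synthesis, tagmentation and amplification were done by the sequencing service, per the labels' protocols. Per the submitters' processing notes the genome was GRCh38. Aligner, counter, annotation and strand setting: not given in the sources used here. The authors deposited estimated counts per gene, not normalized, and CPM, per the file headers; 70.4% to 72.5% of the counts above 0 were whole, and counts were rounded. The 92 ERCC entries were left out. Genes passing filterByExpr (16908) were tested with edgeR 4.0.16 in R 4.3.3 (TMM factors, quasi-likelihood test) on all 9 libraries with genotype and submission as terms, 5 residual degrees of freedom, Benjamini-Hochberg adjustment over all genes, two-sided. Each SE was computed as log2 fold change over the square root of its F. Values within a submission compare mean log2 CPM (prior count 2) and carry no test. Members and lists were chosen with earlier results of these data known. Named genes were the members, 12 genes of the lists, the 5 largest called rises and falls per comparison with a mean of at least 5 CPM, and the 3 genes most like each member. Alternatives included DESeq2 1.42.0 and limma 3.58.1 (voom). The fits were tested on simulated data. Gene models came from GENCODE release 29 and promoters from RefSeq. Values of 2 list genes are not reported here.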

Additional observations from a re-analysis of the deposited data

How the results depend on the processing

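Over 20 alternatives, the ASS1, ASNS and GPT2 differences from WT kept their direction, with ranges of 0.93 to 1.06, 0.54 to 0.58 and 0.29 to 0.36 in R227Q and 0.68 to 0.81, 0.47 to 0.53 and 0.25 to 0.37 in H448L. Numbers of genes called for R227Q against WT were 1557 with DESeq2, 312 without the submission term, 1138 in 4LJFHN alone and 1093 to 3262 when 1 library was left out. For H448L they were 694, 147, 734 and 253 to 1378. For H448L against R227Q they were 54 with DESeq2, 122 with no filter on low counts, 1 without the submission term and 4 to 91 with 1 library left out. Related genes called were 4 and 11 in R227Q and 0 and 5 in H448L without the submission term and in 4LJFHN alone, and 11 to 21 and 3 to 9 with 1 library left out; between variants 1 was called with no filter. The ASS1 call between variants was lost (0 members) without the submission term (-0.26) and with the replicate block (-0.24), and 0 to 1 members were called with 1 library left out; DESeq2 gave no adjusted p for any member there, and gave one for 1174 of 16908 genes. With the replicate block beside the submission term, 2669, 1055 and 31 genes were called. Deviations from the group mean, with submission not removed, correlated at -0.564 to 0.66 between same-numbered libraries. For WT with R227Q the value was 0.66 and 0.656 where both came from 1 submission and -0.564 where they did not. The check followed submission, so it cannot say whether the numbers pair libraries, and they were not taken to do so. Without the submission term, ASL (-0.03) and GOT2 (-0.18) turned sign in H448L, where GOT1 stood at -0.19; between the variants GOT2 (-0.01) and GPT2 (0.01) turned sign. The causes were not tested. Without WT 3, no WT library is left in 4LJFHN, so H448L is compared with WT only through R227Q; 1093, 253 and 21 genes were then called, against 1278, 771 and 22 without R227Q 1. Between the variants, 14 were called without WT 1, 4 without R227Q 3 and 91, 11 and 12 without H448L 1, 2 and 3. Counts of 86 to 135 limit ASL.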
